A study of Mus musculus with 8 samples.

Results

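The genes described here encode 33 proteins of transcription by RNA polymerase II once it has begun. Their roles run from the pause of the polymerase near the start of a gene to its release, its passage through chromatin and its termination. Among them are the polymerase's own largest subunits, and HEXIM1 and LARP7, which control a kinase that acts on it. The rule is a list of names by function and uses no peak value. All 33 were found among the 21883 protein-coding genes that the RefSeq table of the mouse assembly GRCm38.p6 places on the autosomes, X and Y. They were read in maps of H3K79me2, dimethylation of lysine 79 on histone H3, whose writer is the methyltransferase DOT1L.

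The maps come from cultured mouse spermatogonial stem cells, from which sperm production is maintained. The donors of both groups were B6.129S7-Gt(ROSA)26Sor/J pups with LacZ in all tissues, 7 days of age, and the cultures were kept on SNL 76/7 feeders for 2 months, with 10 ng/mL GDNF and 0.5 ng/mL FGF2 in the medium. Treated cultures then received the DOT1L inhibitor EPZ5676 at 2 µM for 7 days and controls received vehicle, which is DMSO in the protocols but ethanol in the descriptions of the control samples. The 8 samples form 4 groups of 2, namely H3K79me2 and input chromatin of control and of treated cultures, and 1 peak list per condition was used. No value below therefore has a replicate error, no test between conditions was possible, and the read depth behind the peaks is unknown here.

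The control list holds 47774 peaks over 168.9 Mb and the EPZ5676 list 9182 peaks over 4.64 Mb. All 10 marker genes of undifferentiated spermatogonia and germ cells, among them Zbtb16, Ret and Ddx4, had a control peak, and none had an EPZ5676 peak. Of 13 genes of fibroblasts, the cell type of the feeders, 7 (53.8%) had a control peak and 4 of these (30.8% of the 13) an EPZ5676 peak. Across the protein-coding set the shares were 52.7% and 12.3%, so the control share was near background. EPZ5676 coverage was 3583 bp at Prrx1, 2907 bp at Twist2, 2141 bp at Fbn1 and 241 bp at Sparc. Pdgfrb, Col1a1 and Fn1 were marked in the control only, and Col1a2, Col3a1, Vim, Dcn, Lum and Postn in neither list. Summed over the fibroblast list, coverage was 49205 bp in the control list and 8872 bp in the EPZ5676 list, against 442208 and 7719 bp over the 33 elongation genes. No step that separated germ cells from feeder cells is named in the protocols, and the part of feeder chromatin in the peaks of the elongation genes was not tested.

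Polymerase II usually stops shortly after it leaves the start of a gene, held there by DSIF and NELF. P-TEFb, a kinase made of CDK9 and a cyclin T, releases it by phosphorylating DSIF, NELF and the tail of the polymerase, and the ELL and EAF proteins join P-TEFb in the super elongation complex. That complex shares its reader proteins AF9 and ENL with the DOT1L complex, and H3K79me2 is typically laid down over the early body of transcribed genes.

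In control cells, 32 of the 33 genes carried an H3K79me2 peak, where 52.7% of all protein-coding genes did. The exception was Ell3. The count was also 32 when control peaks had to reach the weakest p-value found in the EPZ5676 list, where 44.7% of all protein-coding genes had one. A gene counted as carrying a peak when at least 1 bp of its span, from the first to the last annotated base, was covered. The median gene of the group had 41.7% of its span covered in the control, against a median of 2.15% over all protein-coding genes. After EPZ5676, 10 of the 33 genes had a peak, where 12.3% of all protein-coding genes did, and all 10 also had a control peak. In those 10 the EPZ5676 coverage was short, 147 to 2086 bp, or 0.939 to 6.59% of the control coverage of the same gene.

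The DNA just before the start was printed for 7 genes. They are the 5 in which the control domain runs back over this whole stretch, and Ell and Ell3, in which no control peak covers it. The sequences of covered and uncovered stretches were not compared. RefSeq gives a promoter for 28 of the 33 genes (not for Tcea1, Nelfe, Nelfcd, Ctr9 and Iws1). In 5 of the 28 the whole of the 250 bp before the start lay under a control peak, where 5.17% of protein-coding genes with a start had the same. In Cdk12 this stretch lies inside the annotated span, which begins upstream of the start used here. These 5 come first below, followed by Ell, whose domain begins just after its start, and Ell3, which has no peak. Sequences are from RefSeq, build GRCm38.p6, written 5′ to 3′ on the gene's strand and ending at the base before the start, with every CG dinucleotide in capitals.
Ccnt1, chr15:98567737-98567986, minus strand: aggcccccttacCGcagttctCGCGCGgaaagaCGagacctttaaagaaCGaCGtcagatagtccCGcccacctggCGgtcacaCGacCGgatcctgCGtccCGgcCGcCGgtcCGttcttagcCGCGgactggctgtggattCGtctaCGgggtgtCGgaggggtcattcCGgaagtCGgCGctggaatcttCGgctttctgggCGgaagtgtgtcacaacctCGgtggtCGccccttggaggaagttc
Cdk12, chr11:98203055-98203304, plus strand: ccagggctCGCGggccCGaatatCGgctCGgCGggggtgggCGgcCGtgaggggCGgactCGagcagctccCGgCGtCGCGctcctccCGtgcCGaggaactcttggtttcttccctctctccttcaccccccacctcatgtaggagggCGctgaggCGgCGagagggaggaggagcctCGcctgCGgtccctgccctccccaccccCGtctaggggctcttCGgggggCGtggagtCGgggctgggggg
Eaf1, chr14:31494829-31495078, plus strand: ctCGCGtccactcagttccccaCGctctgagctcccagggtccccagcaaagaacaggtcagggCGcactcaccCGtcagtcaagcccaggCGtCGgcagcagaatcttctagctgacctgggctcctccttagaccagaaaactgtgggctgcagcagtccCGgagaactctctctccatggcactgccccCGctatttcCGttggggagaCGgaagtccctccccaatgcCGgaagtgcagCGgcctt
Nelfb, chr2:25211490-25211739, minus strand: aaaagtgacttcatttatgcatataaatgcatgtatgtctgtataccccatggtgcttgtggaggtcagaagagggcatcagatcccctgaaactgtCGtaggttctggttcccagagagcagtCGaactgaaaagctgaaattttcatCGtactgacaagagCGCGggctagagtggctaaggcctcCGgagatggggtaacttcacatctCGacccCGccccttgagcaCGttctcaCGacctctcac
Paf1, chr7:28392746-28392995, plus strand: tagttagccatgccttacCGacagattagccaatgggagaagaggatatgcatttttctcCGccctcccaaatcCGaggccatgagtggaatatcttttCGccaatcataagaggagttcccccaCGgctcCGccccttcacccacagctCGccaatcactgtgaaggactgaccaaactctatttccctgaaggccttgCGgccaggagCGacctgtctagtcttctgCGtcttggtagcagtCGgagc
Ell, chr8:70539425-70539674, plus strand: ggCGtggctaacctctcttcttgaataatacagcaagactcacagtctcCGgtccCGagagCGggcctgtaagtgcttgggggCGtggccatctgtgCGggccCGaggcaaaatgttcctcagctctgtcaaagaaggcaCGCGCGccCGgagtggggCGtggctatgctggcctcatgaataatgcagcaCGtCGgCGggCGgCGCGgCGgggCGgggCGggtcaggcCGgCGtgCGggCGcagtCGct
Ell3, chr2:121442602-121442851, minus strand: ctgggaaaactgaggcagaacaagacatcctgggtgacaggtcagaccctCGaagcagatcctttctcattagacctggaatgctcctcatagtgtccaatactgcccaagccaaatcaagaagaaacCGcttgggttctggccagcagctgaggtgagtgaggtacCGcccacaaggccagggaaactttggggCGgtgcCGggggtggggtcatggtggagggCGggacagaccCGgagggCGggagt

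Among these 7 windows the number of CG dinucleotides was 28 for Ccnt1, 26 for Ell, 25 for Cdk12, 13 for Eaf1, 11 for Paf1, 10 for Nelfb and 8 for Ell3. Ell3 had the lowest number of all 28 genes, but genes with a control peak came close, with 10 each at Nelfb, Eaf2 and Ssrp1. Cdc73 had the highest, with 47. The median was 22.5 over the 28 genes and 10 over 15751 protein-coding promoters of the same length. The latter include genes without a control peak, while 27 of the 28 genes had one. The letters GGGCGG, the core of a GC box, stood on either strand in 22 of the 28 windows and in 43.0% of all windows. CCAAT stood on either strand in 11 of the 28 and in 36.7% of all, and TATAAA in Nelfb and Polr2a only and in 12.7% of all. GGGCGG itself contains a CG, and the searches did not exclude overlapping matches. An EPZ5676 peak touched 0 of the 28 windows and 7 of all 15751, so such overlap was rare in general.

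P-TEFb genes were among the most fully covered of the group. Cdk9, the kinase subunit (chromosome 2, 32705782 to 32712784), had 1 control peak of 5769 bp over 82.4% of its span, and 95.9% of the 1868 protein-coding genes of similar length had less. Similar length means a span at most 25% longer or 20% shorter, the 33 genes themselves left out. The domain ran from 171 to 5939 bp after the start, so the 3′ end was left free, as were Mir2861 and Mir3960, microRNA genes that lie 23 to 188 bp before the start. Cdk9 had no EPZ5676 peak.

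Both cyclin T genes, which encode the partners of CDK9, had peaks in both lists. Ccnt2 (chromosome 1, 127774164 to 127804837) was covered over 24255 bp, or 79.1%, more than 96.7% of genes of similar length, almost all of it in a single domain of 22788 bp with a fold enrichment over background, the authors' value for the peak, of 6.71. Under EPZ5676 it had 3 peaks of 155, 304 and 567 bp, centred 3478, 5668 and 8490 bp after the start. Ccnt1 (chromosome 15, 98538690 to 98567736) was covered over 18497 bp, or 63.7%, and had 1 EPZ5676 peak of 444 bp centred 1469 bp after the start. Its control domain also ran 2802 bp back across the start, over the noncoding gene 9330020H09Rik that lies there. The pair thus differed in the number of EPZ5676 peaks and in where the control domain begins.

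The genes that hold P-TEFb inactive had control peaks only. Few genes of similar length had an EPZ5676 peak, 0.947% for Hexim1 and 6.22% for Larp7. For Ccnt1 and Ccnt2 those shares were 12.9% and 13.8%. HEXIM1 binds the 7SK RNA and blocks the kinase, and LARP7 protects that RNA. Hexim1 (chromosome 11, 103116325 to 103119725) had the highest covered share of the 33, 83.6% of a span of 3401 bp, in a domain of low fold enrichment (2.80). Larp7 (chromosome 3, 127536714 to 127553349) was covered over 4285 bp, or 25.8%, in 1 domain that ended 5124 bp after the start. The microRNA genes Mir302a to Mir302d and Mir367, which lie inside Larp7 between 7542 and 8121 bp after the start, were outside it.

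**Figure D1:**
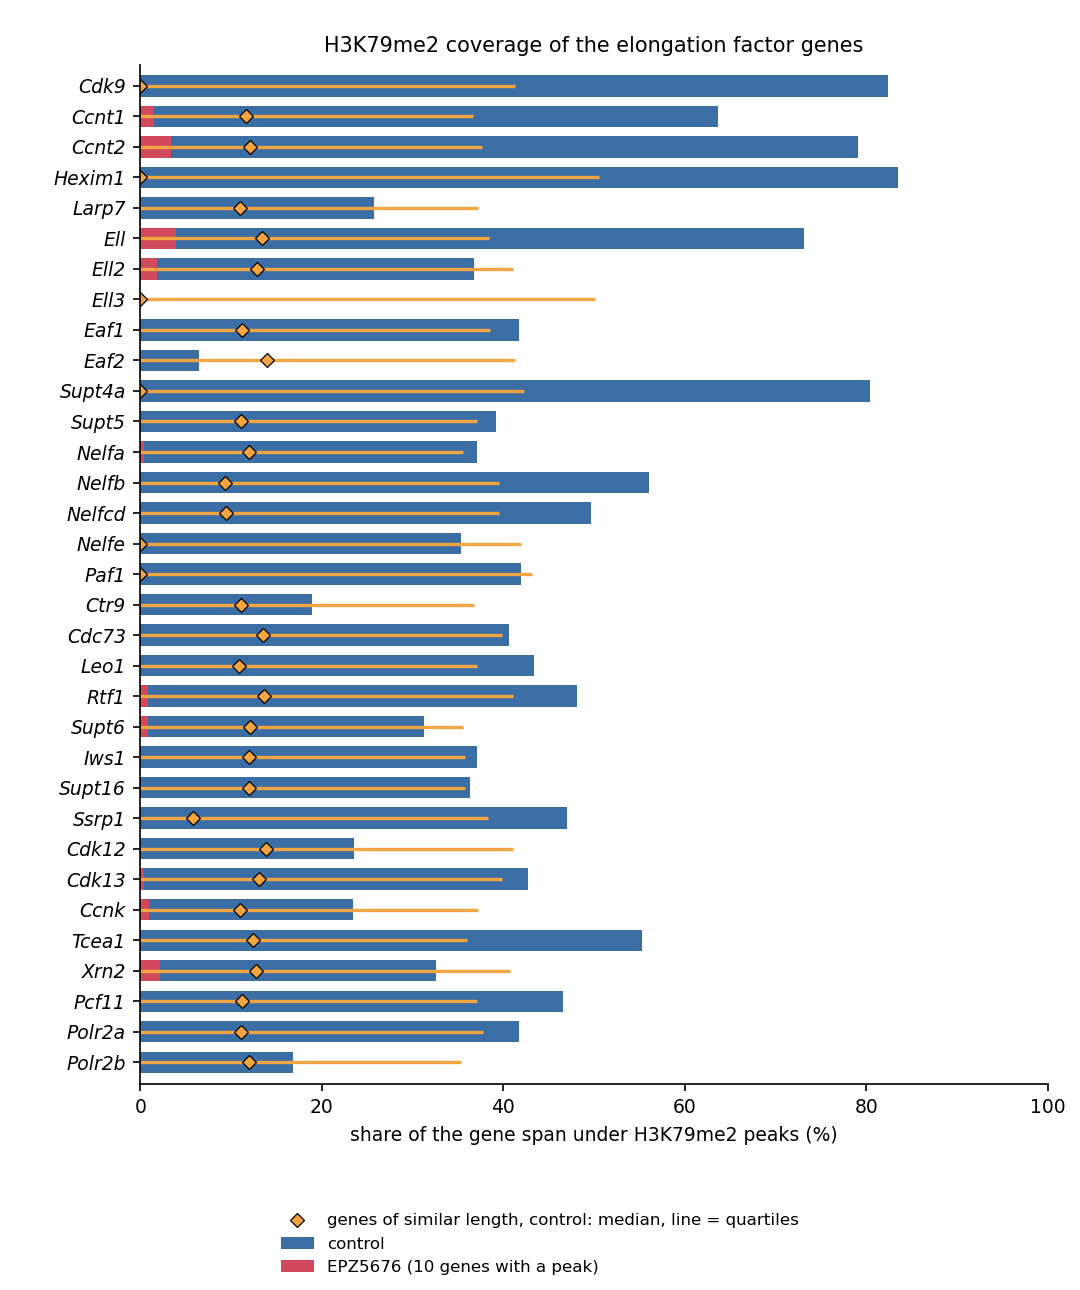
Share of each gene span under H3K79me2 peaks (%), with control in blue and EPZ5676 in red, drawn over it from 0. Diamonds and lines give the median and quartiles of the control share over protein-coding genes of similar length. Of the 33 genes, 31 lie above the diamond; Eaf2 lies below it and Ell3 has no peak.

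The ELL and EAF genes differed widely, from 0 to 73.2% of the span covered. ELL proteins raise the rate of elongation, and the EAF proteins bind them. Ell (chromosome 8, 70539675 to 70592858) had the widest domain of the 33, 38459 bp from 40 to 38498 bp after the start, and 73.2% of its span was covered. It also had the longest EPZ5676 coverage, 2086 bp in 3 peaks of 924, 409 and 753 bp, centred 2650, 4046 and 8547 bp after the start. The peak of 924 bp, with a fold of 3.15 and a −log10 q (the authors' false discovery measure, higher for a surer peak) of 2.28, was the strongest EPZ5676 peak of the group.

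Ell2 (chromosome 13, 75707484 to 75772361) was covered differently, by 9 control peaks over 23852 bp (36.8%), none with a fold over 2.66. Under EPZ5676 it had 4 peaks, of 185, 310, 425 and 243 bp, and the last, centred 29579 bp after the start, was the farthest from a start in the group. Ell3 (chromosome 2, 121439027 to 121442601), the shortest of the ELL genes, had no peak in either list, also with 2 kb added on both sides. Of the 1352 genes of similar length to Ell3, the median had 0% covered in the control.

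Eaf1 and Eaf2 had control peaks only. Of genes of similar length to them, 4.67% and 33.2% had an EPZ5676 peak. Eaf1 (chromosome 14, 31495079 to 31509858) was covered over 6168 bp, or 41.7%, mostly by a domain that began 7256 bp before its start, inside Mettl6, whose span ends 20 bp before it, and ended 5764 bp after it. Eaf2 (chromosome 16, 36792884 to 36875068) had 6.46% of its span covered, the lowest share among the 32 genes with a peak and the only such share below the median of genes of similar length (13.9%). Of its 5310 covered bp, 3827 lay in the part of the span it shares with Iqcb1. The remaining peak of 1483 bp was centred 1245 bp after the start.

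The 6 genes of DSIF and NELF, which hold the paused polymerase, all had control peaks, and 1 of them had an EPZ5676 peak. DSIF consists of the products of Supt4a and Supt5. Supt4a (chromosome 11, 87737551 to 87743623) had a domain over 80.4% of its span, from 10 to 4892 bp after the start. Supt5 (chromosome 7, 28314891 to 28338804) had a domain of 9378 bp with a fold of 6.47, which covered 39.2% of its span.

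The 4 NELF subunit genes had shares of 56.1% (Nelfb), 49.6% (Nelfcd), 37.1% (Nelfa) and 35.4% (Nelfe). Nelfa (chromosome 5, 33897916 to 33936301) alone had an EPZ5676 peak, and at 147 bp it was the narrowest of the group, centred 3525 bp after the start in a control domain of 14237 bp. Nelfb (chromosome 2, 25199712 to 25211489) was a gene whose domain ran back across the start, by 1820 bp and into the neighbouring span of Stpg3. Of the 4261 bp of the Nelfe domain, 2116 lay in its own span (chromosome 17, 34850391 to 34856372), and the rest reached into Skiv2l, which ends 187 bp away.

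The PAF1 complex travels with the elongating polymerase and is needed for several histone marks of transcribed genes. The 5 of its genes described here were covered in the control, and Rtf1 alone of them had an EPZ5676 peak. Wdr61, the gene of another subunit, was counted among the other elongation genes below and had 6239 bp in the control only. Rtf1 (chromosome 2, 119675068 to 119735407) had 29038 bp covered, or 48.1%, with a domain of 26163 bp that began 172 bp after the start. Its EPZ5676 peak of 494 bp was centred 3537 bp after the start.

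Cdc73 (chromosome 1, 143603276 to 143702893) had the longest control coverage of the 33, 40456 bp, and no EPZ5676 peak. That coverage was broken into 23 peaks. The widest, of 10035 bp, lay at the start with a fold of 4.32, and 3541 covered bp lay in the span of B3galt2 inside the gene. Cdk13, with a nearly equal coverage of 39940 bp, had 94.1% of it in a single domain and did have an EPZ5676 peak.

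The remaining genes of the 5 had 11024 bp covered at Leo1 (43.4%), 5194 bp at Ctr9 (18.9%) and 2677 bp at Paf1 (41.9%). Leo1 (chromosome 9, 75441015 to 75466432) had 6 control peaks, among them one of 1471 bp centred 1035 bp before the start. The Paf1 domain (gene span chromosome 7, 28392996 to 28399383) began 4044 bp before the start, inside Med29, a Mediator subunit gene, and ended 2676 bp after it. Ctr9 (chromosome 7, 111028951 to 111056377) had 1 domain of 5194 bp.

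Histone chaperones let the polymerase pass nucleosomes and put them back behind it. SPT6 (Supt6) and its partner IWS1 bind the polymerase, and FACT is made of the products of Supt16 and Ssrp1. Their control domains were alike in width, with 12251 bp at Supt6, 13729 bp at Iws1 and 13388 bp at Supt16, while Ssrp1, the shortest gene of the 4, had 4436 bp. The covered shares were 31.2%, 37.1%, 36.4% and 47.1%. Supt6 (chromosome 11, 78206749 to 78245972) had the only EPZ5676 peak, of 344 bp, centred 3361 bp after the start. Ssrp1 (chromosome 2, 85037120 to 85047114) also had the lowest fold of the 4, 2.81.

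CDK12 and CDK13, which pair with cyclin K, phosphorylate the polymerase tail later in elongation. Cdk13 (chromosome 13, 17711676 to 17805212) had a domain of 37593 bp that began 1240 bp after the start, and 42.7% of its span was covered. Cdk12 (chromosome 11, 98202433 to 98281101) had a domain of 16698 bp that began 496 bp before the start used, still inside its span. Of that span 23.5% was covered. Under EPZ5676 Cdk13 had a peak of 375 bp, centred 4055 bp after the start, and Cdk12 had none. Ccnk (chromosome 12, 108179308 to 108203359), the cyclin K gene, stood apart from the other genes with an EPZ5676 peak. Its control domain was only 5637 bp wide (23.4% of the span), and its EPZ5676 peak of 237 bp, centred 1043 bp after the start, was the nearest to a start in the group.

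TFIIS, encoded by Tcea1, restarts a polymerase that has slid back. Tcea1 (chromosome 1, 4857694 to 4897909) was covered over 22240 bp, or 55.3%, by 6 control peaks and had no EPZ5676 peak.

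The termination genes differed from each other. Xrn2 (chromosome 2, 147012755 to 147078000) encodes the nuclease that degrades the RNA left on the polymerase after cleavage, and it had the highest fold enrichment of the 33, 8.57, in a domain of 12917 bp. Its EPZ5676 coverage was also the largest relative to its control coverage, 1403 bp or 6.59%, in 4 peaks of 247, 191, 283 and 682 bp. These lay close together, with centres 2954, 4721, 5854 and 6953 bp after the start. Pcf11 (chromosome 7, 92643458 to 92670080), whose product ties cleavage to the polymerase tail, had 12406 bp covered (46.6%) in 5 control peaks and no EPZ5676 peak.

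The genes of the polymerase's own largest subunits had control peaks only. Of genes of similar length to Polr2a and Polr2b, 11.1% and 16.1% had an EPZ5676 peak. Polr2a (chromosome 11, 69733997 to 69758633) had 1 domain of 10281 bp with a fold of 6.00, from 350 to 10630 bp after the start, over 41.7% of its span. Polr2b (chromosome 5, 77310484 to 77349328) is the longer gene and was covered less, over 6551 bp or 16.9%, with a domain of 4936 bp at the start. Both shares lay above the median of genes of similar length.

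**Figure D2:**
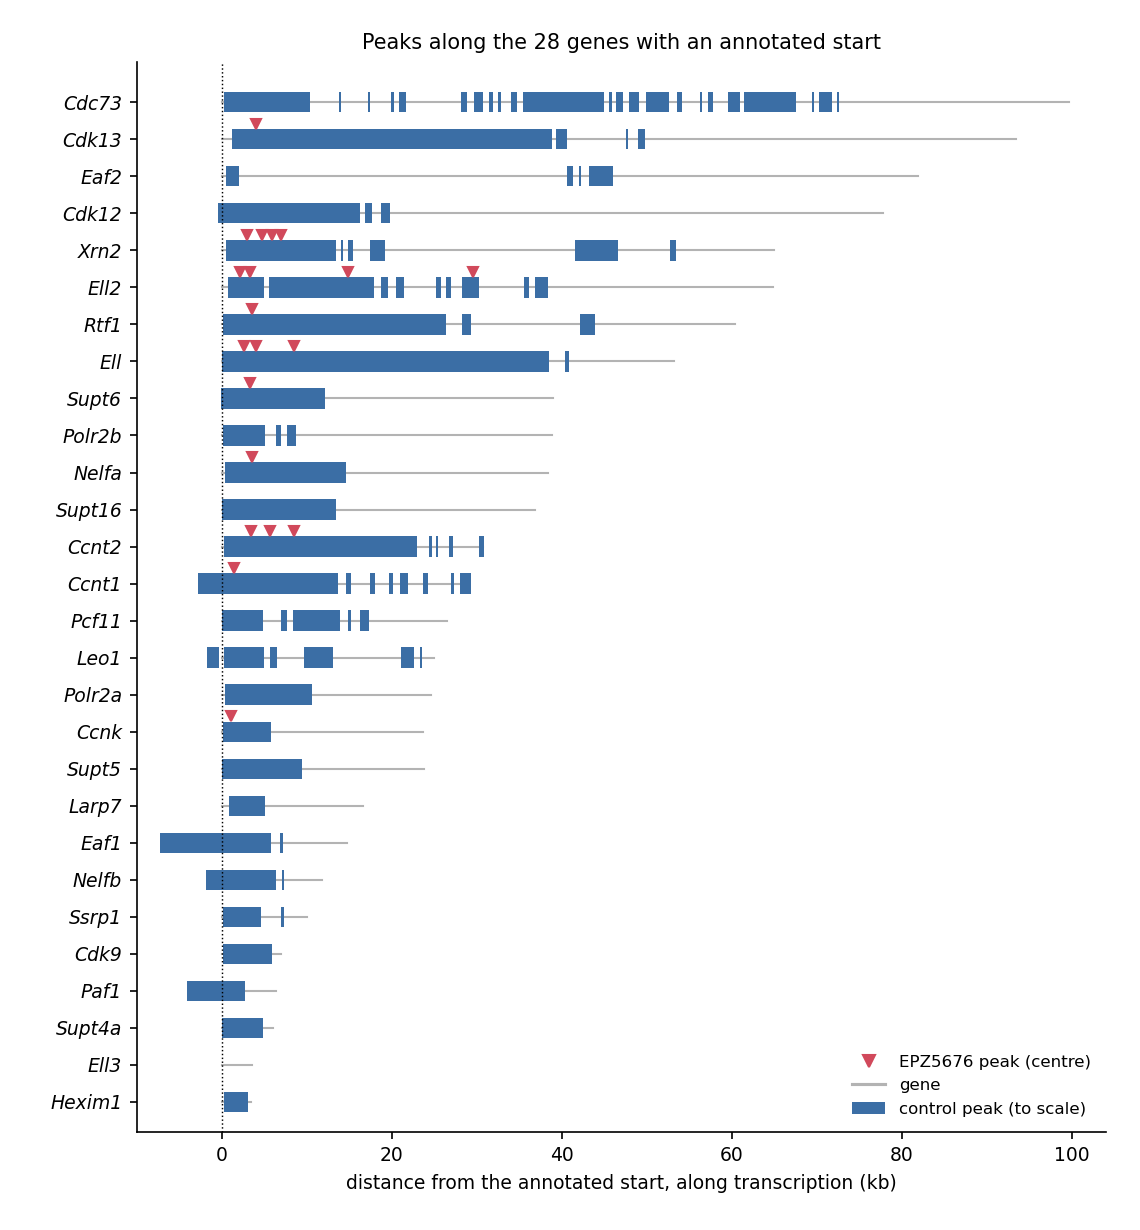
Control peaks (blue bars, to scale) and centres of EPZ5676 peaks (red triangles) along the 28 genes with an annotated start, as distance from the start in the direction of transcription (kb), ordered by gene length. Control domains begin near the start in most genes, and 18 of the 20 triangles lie within 10 kb of it.

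Compared with genes of similar length, 31 of the 33 lay above the median covered share in the control, and 21 above the upper quartile. Genes of similar length numbered between 1267 and 2745. At least 50% of the span was covered in 8 of the 33 genes, against 15.9% of all protein-coding genes. Unmarked genes count in those medians. Set against only those genes of similar length that had a control peak, 24 of the 33 lay above the median. The median of the highest fold per gene was 4.40 in the 32 marked genes and 3.33 over all marked protein-coding genes.

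The control domain sat at the front of these genes. In the 27 marked genes with an annotated start, the widest peak began a median of 172 bp after the start and ended a median of 10630 bp after it. It began within 1 kb of the start, on either side, in 19 of them and lay across the start in 6, namely Ccnt1, Eaf1, Nelfb, Paf1, Cdk12 and Supt6. In Cdk12 and Supt6 the domain did not pass the edge of the gene's span, which lies upstream of the start used. In Eaf2, Pcf11 and Ell2 the widest peak was not the one nearest the start. These positions were not computed for other genes. Control coverage of other marked genes was also higher near the start than near the end, as given next.

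Each gene was cut into 10 equal parts from its start. The mean covered share over the 28 genes was 83.6% of part 1, 87.1% of part 2, 43.2% of part 5 and 3.48% of part 10. Other control-marked genes in the same range of length (6766 genes) had means of 64.6%, 72.3%, 40.4% and 6.74%. The means of the elongation genes were thus above those of the others in parts 1 and 2 and below them in part 10, while the share of genes with any coverage in part 10 was nearly the same, 4 of the 28 (14.3%) against 12.7% of the others. In parts 7 and 8 the means were 26.2% and 18.2%, against 23.4% and 16.3% in the others. Over the first 5 kb, the mean was 87.0% in the 28 genes and 67.8% in the others. The 28 include Ell3, which has no peak.

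**Figure D3:**
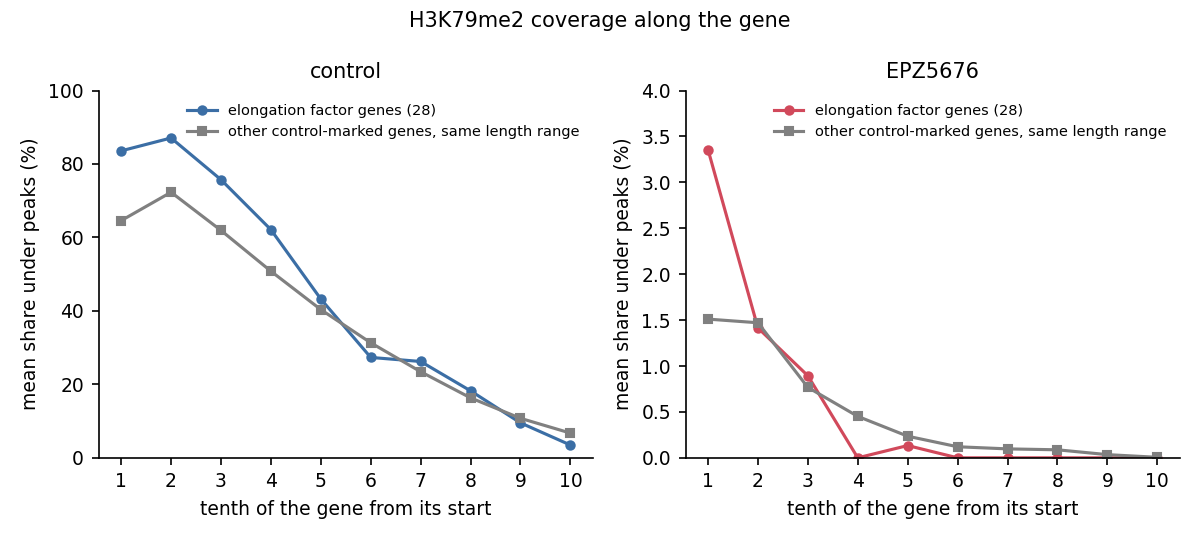
Mean share of each of 10 equal parts of the gene under peaks (%), from the start (1) to the end (10), in the control (left) and after EPZ5676 (right, on a smaller scale), for the 28 elongation factor genes and for 6766 other control-marked genes in the same length range. In the control the 28 genes run from 83.6% in part 1 to 3.48% in part 10, and after EPZ5676 from 3.36% to 0%.

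The EPZ5676 peaks of these genes lay inside control peaks and near the start. The 10 genes had 20 of them, and all 20 lay wholly inside a control peak, 17 inside the widest one of the gene. How often the EPZ5676 peaks of other genes lay inside control peaks was not counted, so this cannot be called particular to the group. Their centres were a median of 3791 bp after the start (1043 to 29579 bp), and 13 lay within 5 kb and 18 within 10 kb. In other genes with both peaks and a span between 24052 and 93537 bp, the range of the 10, the median was 6769 bp, with 38.9% of 1748 peaks within 5 kb and 65.2% within 10 kb. Several of the 20 peaks share a gene, so they are not independent of each other.

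These 20 peaks were short. Their widths ran from 147 to 924 bp (median 327 bp), their folds from 2.56 to 3.15 (median 2.69) and their −log10 q from 1.18 to 2.28 (median 1.36). The whole EPZ5676 list had medians of 402 bp, 2.75 and 1.43. At a −log10 q of at least 2, only Ell of the 33 genes still had an EPZ5676 peak, against 1.91% of all protein-coding genes. At least 500 bp was covered in Ell, Xrn2, Ell2 and Ccnt2, 4 of the 33, against 7.77% of all protein-coding genes. A single EPZ5676 peak of at least 500 bp was found in 3 of these, not in Ell2, against 6.58% of all, and at least 10% of the span was covered in 0 of the 33, against 0.366% of all.

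The 10 genes with an EPZ5676 peak had higher medians of gene length and of control domain width than the 22 without. Their spans were 24052 to 93537 bp (median 46204 bp), their control coverage 5637 to 39940 bp (median 22566 bp) and their widest domain 5637 to 38459 bp (median 15342 bp). The 22 with a control peak only had spans of 3401 to 99618 bp (median 24276 bp), coverage of 2116 to 40456 bp (median 6360 bp) and a widest domain of 2842 to 16698 bp (median 5789 bp). The ranges overlap in all 3 measures. EPZ5676 peaks were rare on short genes in general, with 1.23% of other genes up to 10 kb and 5.00% of those of 10 to 20 kb, so that 0 of the 11 elongation genes up to 20 kb is near the share of other genes.

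A widest control domain over 10 kb was found in 16 of the 33 genes, against 15.3% of all protein-coding genes. Of the 16, 9 had an EPZ5676 peak (56.3%), where 43.4% of all genes with such a domain did. All 4 genes with a domain over 20 kb, Ell, Cdk13, Rtf1 and Ccnt2, had one, against 58.0% of other genes. With a widest domain up to 10 kb, 1 of 16 had one, Ccnk, and the share of other genes was also low, 7.16% up to 5 kb and 15.1% from 5 to 10 kb.

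The count of 10 can be set beside genes alike in length. Averaged over the 33 genes, 14.0% of the genes of similar length had an EPZ5676 peak. Among the 32 marked genes the average was 18.9% over marked genes of similar length, and 22.3% once their control coverage was also within 0.67 to 1.5 times, against the 10 of 32 observed. Over all marked genes it was 19.3%. No test of these differences was possible.

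**Figure D4:**
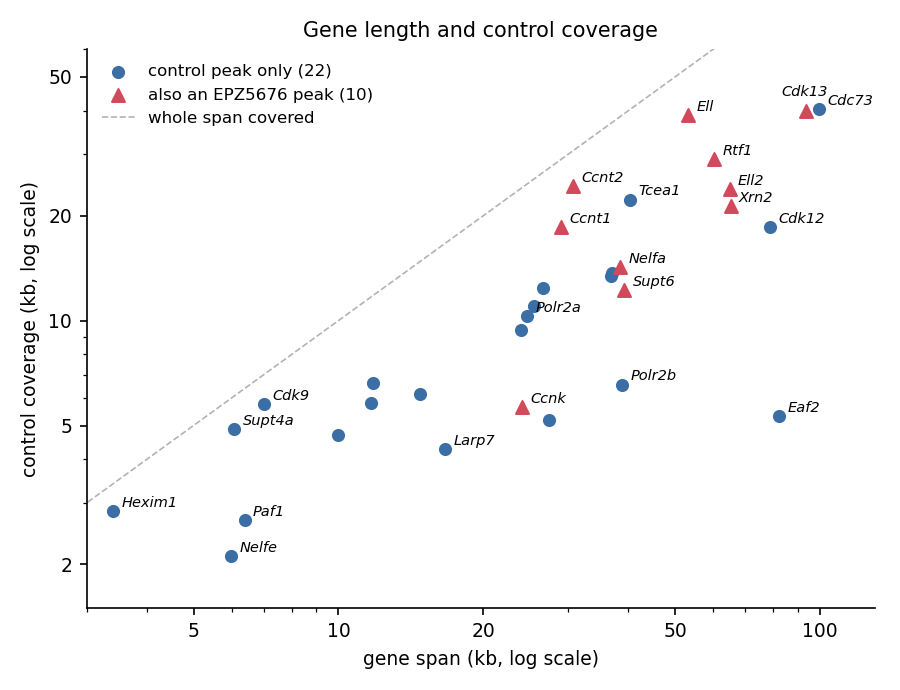
Control coverage (kb, log scale) against gene span (kb, log scale) for the 32 elongation factor genes with a control peak. Blue circles are the 22 genes with a control peak only and red triangles the 10 that also have an EPZ5676 peak, and the dashed line marks a wholly covered span. The triangles begin at a span of 24052 bp, and other protein-coding genes up to 20 kb seldom have an EPZ5676 peak either (1.23% up to 10 kb and 5.00% from 10 to 20 kb).

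**Figure D5:**
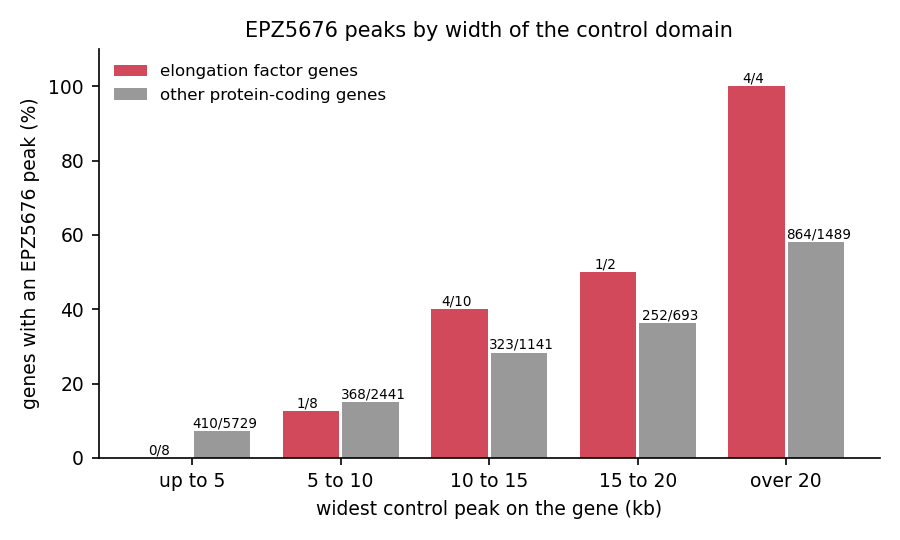
Share of genes with an EPZ5676 peak (%) by the width of the widest control peak on the gene (kb), for the elongation factor genes (red) and other protein-coding genes (grey), with the counts above the bars. The share runs from 0 of 8 genes up to 5 kb to 4 of 4 over 20 kb in the red bars, and from 7.16% to 58.0% in the grey ones.

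Spans that overlap another protein-coding gene limit 8 of the 33, namely Eaf2, Supt16, Supt6, Ccnk, Nelfa, Nelfcd, Cdc73 and Polr2b. None of the EPZ5676 peaks lay in a shared part, and shared control coverage was found only in Eaf2, Cdc73 and Supt6 (57 bp).

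Among 70 other genes of the same machinery, sorted into 6 lists by function, 69 (98.6%) had a control peak and 19 (27.1%) an EPZ5676 peak. The background shares were 52.7% and 12.3%. The 33 genes were close to these 70, with 32 marked in the control and 10 (30.3%) after EPZ5676. The median control share was 43.7% in the 70 and 41.7% in the 33. High control coverage was thus not particular to the 33. The 11 smaller subunits of polymerase II were all marked in the control. Polr2f had the longest coverage of them (6496 bp), and Polr2d alone had an EPZ5676 peak (191 bp). All 8 further partners of P-TEFb and the super elongation complex were marked, and 4 had an EPZ5676 peak, among them the scaffold gene Aff1 (3973 bp), Mllt3 (493 bp) and Aff4 (232 bp).

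Of 12 other elongation genes, 11 were marked in the control and 7 were marked after EPZ5676. Setd2, the H3K36 methyltransferase gene, led in control coverage (53127 bp, with 951 bp in the EPZ5676 list), and Eloc, an elongin subunit gene, led in EPZ5676 coverage (1061 bp, with 9115 bp in the control). Tcea3, a paralog of Tcea1, had no peak in either list, and Tcea2, the other paralog, had 189 bp in the control only.

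In the remaining lists EPZ5676 peaks were found in 7 of 39 genes. All 6 genes of the initiation kinase and the tail phosphatases were marked, and Mnat1 alone had an EPZ5676 peak (160 bp). All 14 Integrator genes were marked, led by Ints6 (39172 bp), and Ints7 alone had an EPZ5676 peak (147 bp). Integrator cleaves RNA at paused polymerases. All 19 genes of cleavage, polyadenylation and termination were marked, led by Scaf8 (41965 bp), and 5 had an EPZ5676 peak, the longest at Cstf3 (2321 bp).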

How the data were processed

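H3K79me2 and input chromatin were sequenced from control and EPZ5676-treated cultures. The tools listed, per the submitters' processing notes, are deepTools, Trimmomatic and bcl2fastq 2.20.0.422, and the build is mm10, another name for GRCm38. Not given in the sources used here are the aligner, the peak caller, any pooling of replicates and the use of inputs. The deposited lists hold a score, a fold enrichment ratio, a −log10 p-value and a −log10 q-value per peak, all the authors' own, used only to describe or filter peaks. The score is the whole part of 10 times −log10 q in all but 4 control peaks.

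Covered bases per gene span and all comparisons were computed with Python 3.11.15, numpy 2.4.6 and pandas 2.3.3, and the counting was checked on simulated intervals. Starts and strands came from the RefSeq promoter table, taking the outermost start, for 15751 protein-coding genes in which it lay within 1000 bp of the span's edge. Depth per sample is unknown, so the precision of a peak's edges cannot be given. The members, role groups and lists were chosen with earlier results of these data known. All 33 members were described. In the other lists, the longest control coverage, the longest EPZ5676 coverage and unmarked genes were named; others named there were chosen after their values were seen, and 1 gene is not reported here. Alternatives changed the overlap, peak threshold, peak width, span, length window and p-value floor. Every deposited column was mapped.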

Additional observations from a re-analysis of the deposited data

How the results depend on the processing

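Of 33 results recomputed under another setting, 25 stayed within 1.5 times the reported count, or inside the 95% order-statistic interval of the reported median, and 8 moved. Some of the 25 could not move. The EPZ5676 count and median were fixed when only the control list was filtered, and the EPZ5676 median of 0 was fixed when peaks were only removed. The 8 all concern EPZ5676 peaks, and in each setting the same number holds for genes with an EPZ5676 peak and for genes with both peaks. The reported 10 became 4 with at least 500 bp covered, 3 with peaks of at least 500 bp (6.58% of all protein-coding genes), 1 with a −log10 q of at least 2, and 0 with at least 10% of the span covered (0.366% of all protein-coding genes). The number with a control peak stayed at 32 with 2 kb added to the spans and with control peaks held to the lowest p of the EPZ5676 list, and was 31 with at least 10% of the span covered and 24 of 25 among genes overlapping no other gene. The median control share ranged from 38.7 to 42.7%. Leaving out a replicate could not be run with 1 list per condition. No paired analysis was possible because each condition has 1 peak list and no result comes from a fit.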
